A study of Gallus gallus with 4 samples.

Results

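The genes of the ubiquitin and proteasome system studied here were taken by name from the peak lists of c-Myc chromatin immunoprecipitation sequencing in chicken muscle cells. Every gene of either list was kept whose symbol begins with UBE2, UBE3, USP and a digit, PSMA to PSMG, FBX, CUL and a digit, KLHL, RNF, TRIM, ASB and a digit, BTBD or OTUD. This gave 103 of the 4832 genes named in the lists, with 328 of 19354 peaks in myoblasts and 9 of 1061 in myotubes. All cells were primary cells of chicken embryo skeletal muscle at passage 1. They were proliferating myoblasts in medium with 15% fetal bovine serum, and myotubes obtained from such myoblasts in medium with 2% horse serum. Each state had 1 library with an antibody to c-Myc and 1 library with control IgG, with between 8.65 and 19.3 M (mega) tags per library. How many embryos gave the cells, and whether they were pooled, is not given in the sources used here. No library had a replicate, so no difference between the states could be tested, and peak lists hold no expression values with which to check the labelled cell types against markers.

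Ubiquitin is a small protein that is attached to other proteins in a relay of enzymes. An activating enzyme passes it to a conjugating enzyme, and a ligase then directs it to the substrate, while deubiquitinases remove it again. Proteins that carry ubiquitin chains are commonly degraded by the proteasome, a barrel of alpha and beta subunits with a regulatory cap that holds ATPases. In skeletal muscle this system is known for the turnover of contractile proteins during wasting, and c-Myc is itself a short-lived protein that is degraded through it. The 103 genes comprised 16 conjugating enzymes, 54 ligases, 14 deubiquitinases and 19 genes of the proteasome, its regulators and its assembly factors. By name, the ligases were 25 single-protein ligases (RNF, TRIM and UBE3) and 29 cullins or substrate adaptors of cullin ligases (CUL, FBX, KLHL, ASB and BTBD). Whether each protein has the activity of its family was not checked. By name alone the rule also took USP6NL, which encodes a GTPase-activating protein and no protease, and USP12P1, which the lists describe as a pseudogene but class as protein-coding.

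In myoblasts 27 of the 103 genes (26.2%, exact 95% binomial interval 18.0 to 35.8%) had a c-Myc peak whose centre was at most 1 kb from the annotated start of transcription (TSS). Of all genes named in either list, 22.0% had one. By role, 7 of 19 proteasome genes (36.8%, 16.3 to 61.6%), 5 of 16 conjugating enzymes (31.3%, 11.0 to 58.7%), 4 of 14 deubiquitinases (28.6%, 8.39 to 58.1%) and 11 of 54 ligases (20.4%, 10.6 to 33.5%) had such a promoter peak. Within 1 kb the intervals of all 4 roles overlapped one another and held the share of all genes. At these numbers no role thus stood apart in this window from the others or from the background. Within the ligases, 6 of 25 single-protein ligases (24.0%, 9.36 to 45.1%) and 5 of 29 cullins and adaptors (17.2%, 5.85 to 35.8%) had a promoter peak. Counts of genes were not tested further. These intervals treat genes as independent draws, although the genes were picked by name. Those of tags given below cover the counting error of tags only. Neither kind covers variation between libraries.

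**Figure D1:**
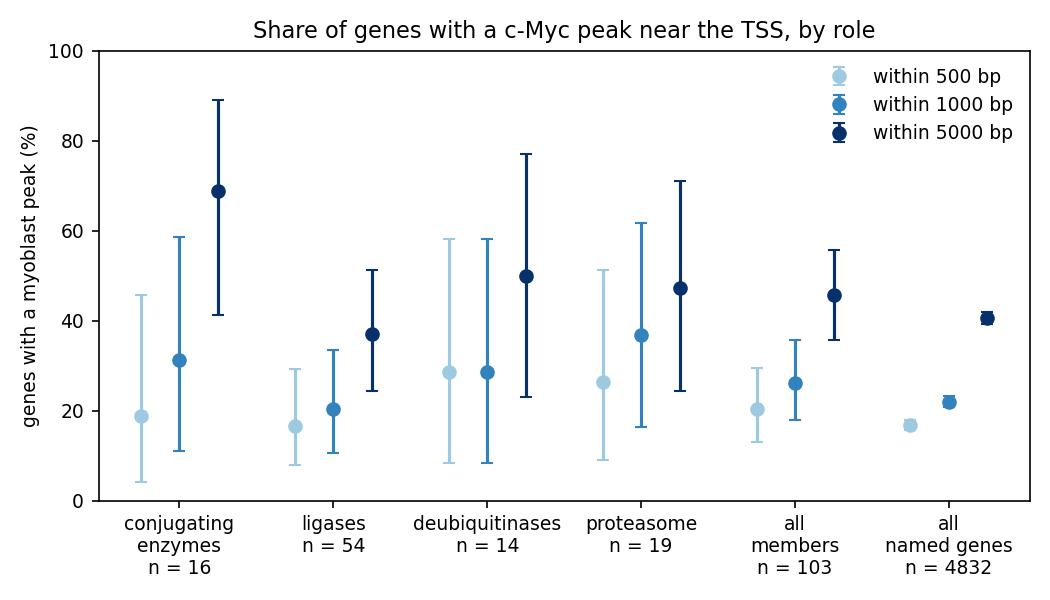
Share of genes (vertical axis, percent) with a myoblast c-Myc peak within 500, 1000 or 5000 bp of the TSS, for each role, for all 103 genes and for all 4832 named genes. Points are shares and bars are exact 95% binomial intervals; within 1000 bp the proteasome genes reach 36.8% and all named genes 22.0%, and the conjugating enzymes reach 68.8% within 5000 bp.

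With a wider window the conjugating enzymes had the highest share of the roles. Within 5 kb of the TSS, 11 of 16 had a myoblast peak (68.8%, 41.3 to 89.0%), against 40.6% of all named genes. The other roles had 9 of 19 proteasome genes, 7 of 14 deubiquitinases and 20 of 54 ligases. The interval of the conjugating enzymes lay just above 40.6%. In no other role and window shown did the interval leave out the share of all named genes. Several roles and windows were looked at, and no test was made. Conjugating enzymes with their closest peak between 1 and 5 kb included UBE2G2, UBE2L3, UBE2V2, UBE2E3 and UBE2R2. Their closest peaks lay 1.12, 3.03, 3.11, 3.38 and 4.52 kb from the TSS, in that order. Within 500 bp the order of the roles changed again, with 4 deubiquitinases (28.6%), 5 proteasome genes (26.3%), 3 conjugating enzymes (18.8%) and 9 ligases (16.7%), against 16.8% of all named genes.

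Among the conjugating enzymes, the strongest promoter peak was that of UBE2A, the partner of the ligases RAD18 in DNA damage tolerance and RNF20 in histone ubiquitination. It lay on chromosome 4 of build galGal4 from 16513237 to 16513437, centred at -345 bp from the TSS (upstream), and held 34.0 tags in the c-Myc library and 3.0 in the deeper IgG library. Its score, which is the authors' own and scales the peak's c-Myc tags to a library of 10 M, was 27.5 and was exceeded by 1 of the 1106 promoter peaks of myoblasts. Scaled alike, the tags counted over the peak were 29.6 per 10 M (20.5 to 41.4) for c-Myc and 1.87 for IgG. UBE2F, which conjugates the ubiquitin-like protein NEDD8 to cullins, followed with a score of 22.7, on chromosome 7 from 4527673 to 4527873 at 102 bp downstream of the TSS, and 26.0 against 2.0 tags. Of all 328 myoblast peaks of the set, that of UBE2A scored highest, and FBXO32, with a peak outside the promoter window, scored between UBE2A and UBE2F.

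The other conjugating enzymes with a promoter peak were near the typical level. UBE2N, which builds chains used in signalling together with UBE2V1 or UBE2V2, had a score of 14.4 at 633 bp, with 16.5 c-Myc and 5.5 IgG tags. UBE2D1, a conjugating enzyme that works with many ligases, had 12.2 at 543 bp, with 14.5 and 5.5 tags. UBE2G1, which extends chains on substrates of cullin ligases, had 11.8 at -74 bp, with 14.5 and 2.0 tags. The peaks of UBE2N and UBE2D1 thus held the same IgG tags and lay at similar distances inside the transcribed side, whereas UBE2A and UBE2F held fewer IgG tags. The tag interval of UBE2A lay wholly above those of 11 of the other 28 promoter peaks, and overlapped those of the rest.

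**Figure D2:**
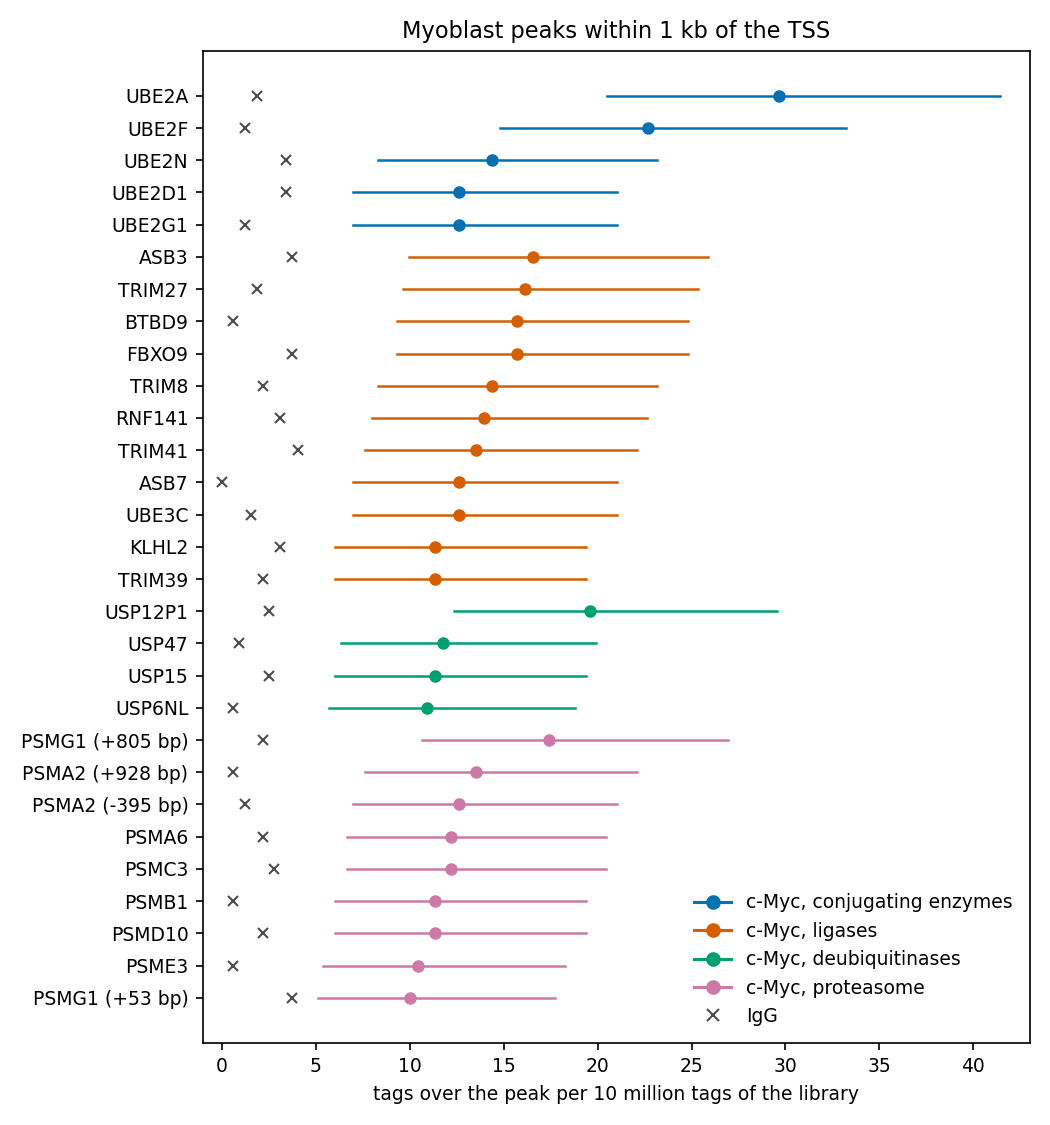
Tags over each of the 29 myoblast promoter peaks, per 10 M tags of the library (horizontal axis), with genes by role on the vertical axis. Circles are c-Myc with 95% Poisson intervals as bars, and crosses are IgG. UBE2A is highest at 29.6 and the weaker of the PSMG1 peaks lowest, and IgG stays at or below 4.04.

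Proteasome genes carried promoter peaks in several parts of the complex, at modest scores. In the barrel they were the alpha subunits PSMA2 and PSMA6 and the beta subunit PSMB1, in the cap the ATPase PSMC3, and outside the complex the nuclear activator PSME3 and the assembly chaperones PSMG1 and PSMD10, the latter also known as gankyrin. PSMG1 had the highest score of these, 17.4 at 805 bp, on chromosome 1 from 107304884 to 107305084 with 20 c-Myc and 3.5 IgG tags. Closer to its TSS, at 53 bp, a further peak scored 10.9 with 11.5 and 6.0 tags. PSMA2 likewise had a pair of promoter peaks, with scores of 12.6 at -395 bp and 11.8 at 928 bp and with 2.0 and 1.0 IgG tags. PSMG1 and PSMA2 were the only genes among the 103 with 2 promoter peaks.

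PSMB1 scored 13.1 at 262 bp, with 13.0 c-Myc tags and 1.0 IgG tag. PSMA6, PSMC3 and PSMD10 scored 12.2 each, at 772, 88 and 712 bp, with 3.5, 4.5 and 3.5 IgG tags. PSME3, on chromosome 27, had the lowest score of all 29 promoter peaks, 10.5 at 3 bp, with 12.0 and 1.0 tags. The median score of the 9 proteasome promoter peaks was 12.2, below the median of 13.5 over all 1106 promoter peaks of myoblasts. The 12 proteasome genes without a promoter peak included PSMC6, with 11 peaks of which the closest lay 15.1 kb from the TSS, and PSMC5, whose closest lay 135.0 kb away.

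Ligases had promoter peaks of a narrow range of scores, from 11.3 to 15.7. TRIM27, ASB3 and BTBD9 scored 15.7 each. ASB3, a substrate adaptor of cullin ligases with a SOCS box, held 19.0 c-Myc and 6.0 IgG tags at 278 bp, and BTBD9, an adaptor with a BTB domain, held 18.0 and 1.0 at -84 bp. FBXO9, an F-box protein, scored 15.3 at -259 bp with 18.0 and 6.0 tags, so that FBXO9 and BTBD9 held equal c-Myc tags over unequal IgG tags.

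The remaining ligases were lower. RNF141, a RING finger protein, scored 13.9 at -144 bp with 16 c-Myc and 5.0 IgG tags, and TRIM8, a RING ligase of cytokine signalling, 13.9 at 908 bp with 16.5 and 3.5. UBE3C, a HECT ligase that binds the proteasome and extends chains there, scored 12.6 with its peak centred 2 bp from the TSS and 14.5 and 2.5 tags. ASB7 scored 12.6 at -104 bp with 14.5 c-Myc tags and no IgG tag, and it was the only one of the 29 promoter peaks without an IgG tag. KLHL2, an actin-binding adaptor of cullin ligases, scored 11.3 at -76 bp with 13.0 and 5.0 tags. CUL2 was the only cullin named, and its single peak lay in its last intron, 45.0 kb from the TSS.

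Of the ligase promoter peaks, 3 lay close together on chromosome 16, a microchromosome that carries the major histocompatibility complex in the chicken. They were at TRIM41 (149069 to 149269), TRIM39 (164858 to 165058) and TRIM27 (209019 to 209219) and spanned 60.2 kb. Their scores were 13.5, 14.8 and 15.7, with 6.5, 3.5 and 3.0 IgG tags. The chromosome held 14 myoblast peaks, and these were its only 3 within 1 kb of a TSS. By gene identifier, TRIM39 and TRIM27 are named TRIM39.2 and TRIM7.2 in the newer RefSeq table of GRCg7b, so the symbols printed here are those of the deposited lists.

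Among deubiquitinases USP12P1 had the strongest promoter peak, with a score of 20 at -123 bp and 22.5 c-Myc against 4.0 IgG tags, on chromosome 4 from 12206609 to 12206809. RefSeq of GRCg7b calls the same identifier USP12-like. USP15 scored 12.6 at -217 bp with 13.0 and 4.0 tags, and USP47, known for deubiquitinating a DNA repair polymerase, 11.8 at -371 bp with 13.5 and 1.5. USP6NL scored 10.9 at 13 bp with 12.5 and 1.0 tags. Without USP12P1 and USP6NL, 2 of 12 deubiquitinases (16.7%) had a promoter peak, a setting chosen after the data were seen. The value lay inside the interval of all 14 deubiquitinases, 8.39 to 58.1%, and no interval of its own was computed. It is therefore not read as a difference from the 22.0% of all named genes.

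As a set, the 29 promoter peaks had a median score of 12.6 (95% interval of the median 12.2 to 14.8), which holds the 13.5 over all promoter peaks, and a median of 3.5 IgG tags against 3.0. UBE2A, UBE2F and USP12P1 were among the upper 10% of promoter peaks by score, which is 10.3% of the peaks of these genes. Of the 27 genes, 9 held peaks with less than a 6-fold excess over IgG in the authors' lists, which required at least 4-fold: UBE2D1, UBE2N, ASB3, FBXO9, KLHL2, RNF141, TRIM41, PSMA6 and PSMC3. The share of all promoter peaks below 6-fold was not counted, so whether 9 is many or few cannot be told. The median fold was 8.01 over the 29 peaks and 7.47 over all 1106 promoter peaks.

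The few promoter peaks of each role were split as follows about the TSS. Of the 9 proteasome peaks 8 were centred downstream of the TSS, with a median position of 262 bp, while 8 of the 11 ligase peaks and 3 of the 4 deubiquitinase peaks were centred upstream, with medians of -104 and -170 bp. Conjugating enzymes had 2 upstream and 3 downstream. Over all 1106 promoter peaks 57.8% were centred upstream and 42.2% downstream, with a median of -57.5 bp. The ligase and deubiquitinase peaks thus leaned to the same side as all promoter peaks. PSMA2 and PSMG1 each gave 2 of the 9 proteasome peaks, and no test of the positions was made. Just inside the limit of 1 kb were TRIM27 (-847 bp), TRIM8 (908 bp) and the PSMA2 peak of lower score (928 bp). Just outside it were UBE2G2 (1119 bp), RNF126 (-1155 bp) and a further peak of PSMC3 (1337 bp), with scores of 14.4, 10.5 and 10.5.

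**Figure D3:**
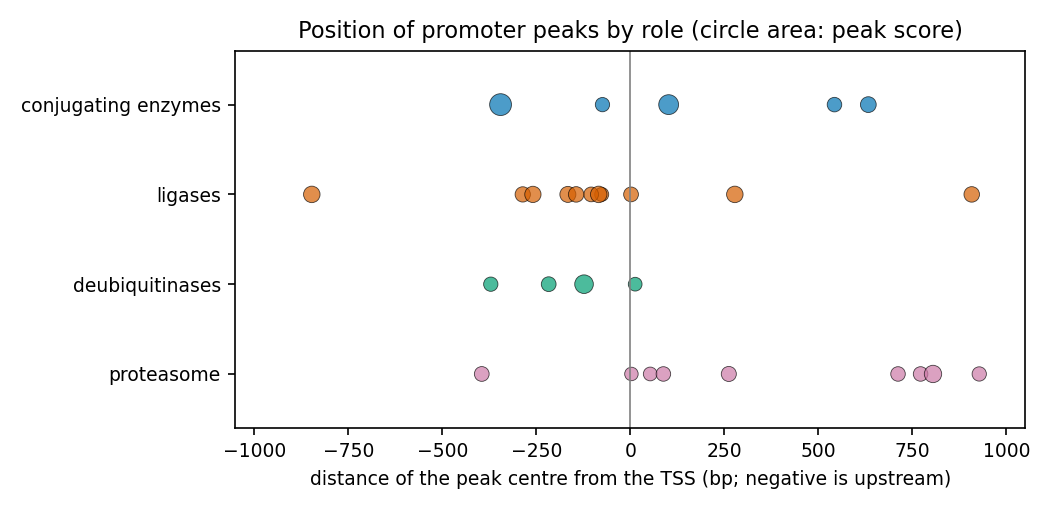
Position of the 29 myoblast promoter peaks relative to the TSS (horizontal axis, bp, negative upstream), by role; the area of a circle is proportional to the peak score. Of the 9 proteasome peaks, 8 lie downstream of the TSS, and 8 of the 11 ligase peaks lie upstream.

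The authors' annotation names 1 gene per peak, so a promoter peak may also lie near the start of a neighbour. In the gene order of GRCg7b, TBP stands next to PSMB1, MRPL32 next to PSMA2, MRPL42 next to UBE2N and BECN1 next to PSME3. No promoter peak was counted for these neighbours. A peak named for 1 gene cannot be counted for its neighbour as well, so these counts cannot show whether a peak is shared. The neighbours carry symbols of GRCg7b, and the lists may name some of them otherwise. A promoter peak was counted for NKRF next to UBE2A, ETS2 next to PSMG1, SUFU next to TRIM8 and AMPD3 next to RNF141. The same held for CISD1, which stands next to UBE2D1 and encodes an iron-sulfur protein of the mitochondrial outer membrane. Distances between the starts of neighbours and their orientation were not measured, and the state of the counted peaks is not given here. The myoblast peak of UBE2D1 was centred 827 bp from a myotube peak that the annotation gave to CISD1, at -22 bp of its TSS, with a score of 14.4, 13.0 c-Myc tags and 1.0 IgG tag. The peaks of UBE2D1 and CISD1 thus lay close together in different states, under different names and without overlap.

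Most peaks assigned to these genes lay far from promoters. Of the 328 myoblast peaks 8.84% lay within 1 kb of the TSS, 7.32% between 1 and 5 kb, 46.0% between 5 and 50 kb and 37.8% farther away. Over the whole myoblast list 5.71, 5.93, 35.3 and 53.1% lay in these ranges, so the median distance was 32.7 kb for these genes and 57.1 kb for all. Introns held 18.9% of their peaks and intergenic sequence 68.0%, against 13.6% and 77.1% of the list. Any myoblast peak at all was assigned to 102 of the 103 genes, against 98.6% of all named genes. Genes are named only through a peak in either list, and most peaks are of myoblasts, so such high shares follow from the selection. A total of 56 of the 103 genes had no myoblast peak within 5 kb of the TSS, against 2871 of all 4832 named genes.

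Peaks were unevenly spread over the genes. The median was 2 myoblast peaks per gene, against 3 for all named genes, and 33 of the 103 genes (32.0%) had 1, against 26.1% of all named genes. UBE2V2, a variant that lacks the catalytic cysteine and serves UBE2N as a partner, was nearest to 25 peaks, 31.6% of all those given to conjugating enzymes. Of these, 24 lay downstream of its TSS, as far as 718.5 kb, with scores between 9.59 and 14.4, and none was at the promoter. PSMC6 followed with 11 peaks, ASB12 with 10 and PSMA2 with 9, while BTBD9, USP7 and UBE2E3 had 8 each. Each peak carries the name of 1 gene only, and the spacing of UBE2V2 and its neighbours was not measured.

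The strongest peak outside the promoter window was at FBXO32, which encodes atrogin-1, the F-box ligase known from muscle wasting. It scored 23.1, on chromosome 2 from 137670572 to 137670772 at -1970 bp, with 25 c-Myc and 2.5 IgG tags, and the authors' annotation still classed it as promoter. Next came a peak 45.1 kb upstream of FBXO7, an F-box protein linked to mitophagy, with 22.7 and 27.5 against 3.5 tags, and a peak 33.7 kb downstream of the TSS of RNF4, a ligase that recognises SUMO chains, with 21.8 and 25 against 0.5 tags. Both lay in CpG islands. USP34, a deubiquitinase of Wnt signalling, had 21.4 at -1365 bp with 24.5 against 1.0 tags, and USP6NL 20.9 at 127.8 kb with 24.0 against 1.5.

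**Figure D4:**
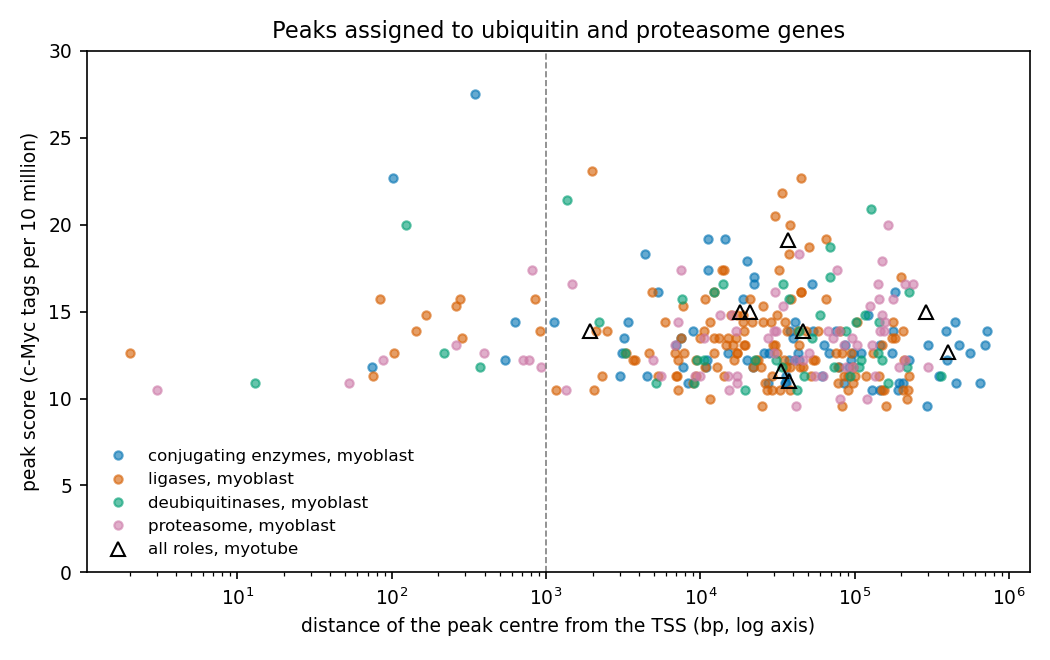
Score (vertical axis, c-Myc tags per 10 M) against distance from the TSS (horizontal axis, bp, log axis) for every peak assigned to the 103 genes, coloured by role in myoblasts and as open triangles in myotubes. The dashed line marks 1000 bp; UBE2A at 27.5 is the highest, and all 9 myotube peaks lie to the right of the line.

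Some genes listed for a known place in muscle or in the turnover of MYC were named in the lists. None of those named had a peak within 1 kb of the TSS in either state. Of 29 symbols listed for muscle, which can include more than 1 symbol for a gene, 4 were named in the lists: FBXO32, TRIM55, KLHL24 and ASB9. TRIM55, a RING protein of the sarcomere, had its closest peak 5.33 kb upstream of the TSS with 11.5 c-Myc and 5.0 IgG tags, KLHL24 one at 3.66 kb in a simple repeat, and ASB9 one at 75.3 kb. Of 26 genes listed for the turnover of MYC, 7 were named. The share of all RefSeq genes that the lists name was not computed, so these 2 counts of named genes have no background. USP28, which in human cells stabilises MYC against the ligase FBXW7, had a score of 16.6 at 34.4 kb upstream, with 18.5 and 2.0 tags. Besides FBXO32 and RNF4, the others were STUB1, a chaperone-bound ligase, with its closest peak at -1607 bp (11.8), USP10 at -2194 bp (14.4), USP2 at 3.25 kb (12.6) and USP7, a deubiquitinase of p53 and MDM2, at 46.8 kb (11.3). The authors' annotation classed the closest peaks of FBXO32 and STUB1 as promoter, although both lay beyond 1 kb. A count of 0 of 7 and 0 of 4 allows shares of up to 41.0% and 60.2%, which hold the 22.0% of all named genes in myoblasts and the 1.37% in myotubes.

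In myotubes none of the 103 genes had a peak within 1 kb of the TSS, which allows a share of up to 3.52%, and 1.37% of all named genes had one. Within 500 bp there was likewise none, against 0.931%. Within 5 kb there was 1, at BTBD9, against 2.98% of all named genes. The BTBD9 peak was centred at -1932 bp with a score of 13.9, 12.0 c-Myc tags and 1.0 IgG tag, and its myoblast peak lay 1848 bp away at the TSS. The absence of promoter peaks in myotubes does not show a loss of c-Myc. Myoblast peaks were scaled to the depth of the myotube library and, in proportion, to its peaks of 154 bp in place of 200 bp. That takes tags as spread evenly over a peak, and scaling to depth alone was not run. A myoblast peak then needed a caller score of 18.9 to reach the lowest caller score listed in myotubes, 11. Of the 29 promoter peaks 2 did, those of UBE2A and UBE2F (6.90%), against 14.3% of all promoter peaks of myoblasts. By the tags of the called peak, of which the myotube list holds as few as 9, a myoblast peak needed 15.5012. That is just above 15.5, so TRIM41, with 15.5 called tags, did not reach it. Of the 29 peaks 12 did, against 47.6% of all promoter peaks. These 12 included USP12P1, PSMG1 and BTBD9. By the deposited score, scaled to 10 M tags but not to peak width, the lowest of the 29 was 10.5, above the lowest in myotubes, 10.4. How many of the peaks could have been listed at equal signal thus depends on the measure and on the scaling.

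Each of the 9 myotube peaks belonged to a different gene. PSMC6, an ATPase of the proteasome cap, had the strongest, with a score of 19.1 at 36.8 kb downstream of the TSS and 17.0 c-Myc against 2.0 IgG tags. Scores of 15.0 with 13.0 c-Myc tags each were found for UBE2F 18.1 kb upstream, PSMD2 20.9 kb upstream and USP7 290.6 kb upstream, and their IgG tags were 6.0, 0 and 1.0. UBE2J1, a conjugating enzyme of the endoplasmic reticulum, had 13.9 at 46.1 kb upstream, UBE2V2 12.7 at 401.3 kb, USP28 11.6 at 33.2 kb upstream and PSMA2 11.0 at 37.7 kb. The 9 genes were 8.74% of the 103, while 18.3% of all named genes had any myotube peak. The share of the 103 was thus the lower one, but no interval was computed for it and the difference was not tested. PSMD2, a scaffold subunit of the cap, was the only one of the 103 genes named in the myotube list alone.

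No myotube peak of these genes overlapped a myoblast peak, but some lay close to one. The count of 0 of 9 allows a share of up to 33.6%, and 6.97% of all 1061 myotube peaks shared 1 bp or more with a myoblast peak. A myoblast peak was centred within 5 kb of 5 of the 9 (55.6%, 21.2 to 86.3%), against 31.0% of all myotube peaks, a share inside that interval. At UBE2F the centres were 891 bp apart, 18.1 and 19.0 kb upstream of the TSS, with scores of 15.0 in myotubes and 15.7 in myoblasts and with 6.0 and 5.5 IgG tags. At USP28 they were 1196 bp apart, with 11.6 and 16.6, and at PSMC6 2.43 kb apart, with 19.1 and 15.3. BTBD9 and UBE2V2, the latter with centres 3.49 kb apart, were the others. Peak width differed between the states, and the scores are not corrected for that.

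Other genes of the pathway, from a list of 206 symbols that the naming rule does not take, included 58 that the lists name. In myoblasts 24 of them (41.4%, 28.6 to 55.1%) had a promoter peak, against 22.0% of all named genes, with a median score of 13.1, against 13.5 over all promoter peaks. The list was drawn up with results of these data known, so this share is a description, and it was not tested against that of the 103 genes. Among them were the ligases HERC3 (24.0, with 26.5 c-Myc and 3.5 IgG tags), RAD18, the ligase partner of UBE2A (14.8), XIAP, an inhibitor of caspases (13.9), MDM2 (13.1), WWP1 (11.3) and PELI1 (10). Ligase subunits and adaptors were TCEB3 (22.7), SOCS3 (15.7), DCAF7 (14.8), ANAPC5 of the anaphase-promoting complex (13.1), SKP1, the linker of F-box proteins to the cullin (12.2), KBTBD4 (10.9) and DCAF12 (10.5).

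Deubiquitinases outside the rule had promoter peaks at ATXN3 and BAP1, a nuclear deubiquitinase of histones, with 16.6 each, and at YOD1 (11.8) and UCHL3 (10.9). Cofactors of the segregase VCP were NSFL1C (24.4), UFD1L (13.9) and UBXN2A (11.8). ADRM1, the ubiquitin receptor of the proteasome cap, scored 12.6 at -612 bp with 13.5 and 1.0 tags, and COPS8, a subunit of the signalosome that removes NEDD8 from cullins, 13.1 at -105 bp. TRAF7 (16.1) and PIAS1, a SUMO ligase (10.9), completed the 24. In myotubes 2 of the 58 had one (3.45%, 0.420 to 11.9%), against 1.37% of all named genes, a share inside that interval. They were RAD18 at -64 bp and UCHL1, a deubiquitinase known from neurons, at 907 bp. Each had a score of 13.3 and 11.5 c-Myc tags, with 5.0 and 3.0 IgG tags.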

How the data were processed

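CASAVA 1.8.2, Trimmomatic 0.30, FastQC 0.10.1, Bowtie2 2.1.0 and HOMER 4.6, without order or options, and the build galGal4 come per the submitters' processing notes. Peaks of each c-Myc library were called against the IgG library of the same state and annotated with HOMER, per the file headers. The deposited score of a peak is c-Myc tags per 10 M tags, and the caller score is in tags. Deposited signal columns hold c-Myc and IgG tags per peak, unscaled, and, separately, IgG tags at c-Myc depth. The fold over IgG is a deposited ratio, at least 4 for every peak, and the deposited p-value for c-Myc over IgG was 4.48e-05 or lower for the peaks of these genes. Tags printed are those counted over the peak in both libraries, and they need not give the deposited fold. The weaker PSMG1 promoter peak, with 10.0 c-Myc and 3.73 IgG tags per 10 M, has a deposited fold of 8.76. The authors' distance and nearest gene were used as deposited.

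Genes were matched by symbol, roles were assigned by name, and genes with a peak within 1 kb were counted with scipy 1.17.1, pandas 2.3.3 and numpy 2.4.6 under Python 3.11.15 (figures: matplotlib 3.10.9); the counting was tested on simulated data. Shares carry exact (Clopper-Pearson) 95% intervals and tags 95% Poisson intervals. Tags come in steps of 0.5, and for values that are not whole the Poisson formula interpolates, so those intervals are not exact. All 103 identifiers matched RefSeq of GRCg7b, used for names and gene order only, and 5 carry another symbol there: KLHL13, OTUD6B, TRIM27, TRIM39 and USP12P1. The genes and lists were chosen with earlier results of these data known. Named were all genes with a promoter peak, listed muscle and MYC turnover genes with any peak, the 5 highest peaks elsewhere, genes with the most peaks, all myotube peaks and the other pathway genes with a promoter peak. CUL2, PSMC5 and some values near window limits were chosen after their values were seen. With 1 library per group no test of a condition was made. The values of 1 gene are not reported here.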

Additional observations from a re-analysis of the deposited data

How the results depend on the processing

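The count of 27 genes with a myoblast promoter peak became 21 within 500 bp, 47 within 5 kb, 18 with at least 6-fold over IgG, 16 in the upper 50% of the list by score and 4 with as many myoblast peaks as the myotube list holds. Apart from the windows, these settings were not applied to all named genes, so their counts and shares have no background. The myotube count of 0 became 1 within 5 kb. Within 5 kb the shares rose to 68.8% of conjugating enzymes and 37.0% of ligases. In the upper 50% by score the proteasome share was 10.5%, the lowest of the roles in place of the highest, and the median score of promoter peaks was 15.05. Over every RefSeq gene that meets the rule, 357 genes of which some may be missing from the annotation the authors used, the share of genes with a promoter peak was 7.56%, with 4.70% of ligases and 7.84% of deubiquitinases. The share over all RefSeq genes was not computed, and the background share given above is over named genes only, so it cannot be set beside these values. Leaving out simple repeats could not change the counts or shares, because the detailed annotation of all 29 promoter peaks names a promoter and no repeat class. That setting therefore tells nothing about repeats at promoters. None of the overlap rules tried gave a shared peak among the 9 in myotubes, where 6.97% of all 1061 myotube peaks shared 1 bp or more with a myoblast peak. No peak lay on unplaced sequence, so leaving it out was not run, and the search for E-box letters in promoters was not run. No paired analysis was possible because each group has 1 library and the results come from no test. Single peaks hold 10 to 34 c-Myc tags in myoblasts, which limits every ranking of genes.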
